A study of Homo sapiens with 23 samples.

Results

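The Hippo pathway genes LATS1, LATS2, YAP1, WWTR1 and TEAD1 and the YAP target genes CCN1, CCN2, AMOTL2, ANKRD1 and AXL were followed across wild-type and argonaute knockout HCT116 cells. These 10 genes were chosen by name and matched by Ensembl identifier to the 57875 genes listed in each sample. HCT116 is a human colorectal carcinoma cell line. RNA was measured by RNAseq in wild-type cells and in cells edited with CRISPR to lose AGO1 alone, AGO2 alone, both (AGO1/2) or these and AGO3 (AGO1/2/3), with 3 biological replicates for each of the 5 lines, at passages given as 12-18. Each genotype is 1 edited line, so a change of genotype and a difference between lines cannot be told apart. The paper reports that several of the knockout lines grew more slowly than wild-type cells, slowest in the line that lost the most AGO genes. Its methods give a common seeding number and harvest time for all lines. Any difference in growth or in cell density at harvest therefore cannot be told apart from genotype, and its part in the results was not tested. AGO proteins carry miRNAs to their target mRNAs, and the comparisons ask how steady state RNA levels change as AGO genes are lost.

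In the Hippo pathway the kinases LATS1 and LATS2 phosphorylate the coactivators YAP (YAP1) and TAZ (WWTR1), which are then held in the cytoplasm or degraded. When the kinases are inactive, YAP and TAZ enter the nucleus and bind TEAD transcription factors, which have no strong activity alone. YAP, TAZ and TEAD together switch on genes of growth, adhesion and matrix signaling, including CCN1, CCN2, ANKRD1 and AXL. They also switch on LATS2 and AMOTL2, which restrain YAP and TAZ. The activity of YAP and TAZ is set mainly through their phosphorylation and location, which RNA levels do not show.

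Levels are given as TMM-scaled CPM, the estimated counts of a gene relative to the depth of its library after TMM scaling, and changes as log2 fold changes ± the standard error of the model. A gene was called where the p-value of edgeR's quasi-likelihood test, adjusted by Benjamini-Hochberg over the 22842 genes tested, was at or under 0.05. All 10 genes passed the filter on low counts, and all would have passed it on the wild-type samples alone. All 4 comparisons with wild-type cells use the same 3 wild-type samples.

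Total counts were 27709971 to 45271146 per sample, highest in the AGO2 knockout cells (40419152 to 45271146). AGO1 RNA was lower in each of the 3 lines edited at AGO1 (single, double and triple knockout), with log2 fold changes of -1.89, -1.84 and -2.01, and AGO3 RNA was lower in the AGO1/2/3 knockout cells (-1.12 ± 0.12, edgeR adjusted p = 3.41e-06). AGO2 RNA was lower in the AGO2 knockout cells (-0.51 ± 0.10, edgeR adjusted p = 0.00518), was not called in the AGO1/2 knockout cells (-0.26 ± 0.10, edgeR adjusted p = 0.0924) and was higher in the AGO1/2/3 knockout cells (0.40 ± 0.10, edgeR adjusted p = 0.00477). Small edits can leave a transcript in place, so the RNA level of AGO2 does not check the labels. The paper checked the lines by DNA sequencing and reports, from western blots, that the targeted proteins were absent. AGO4, which was not edited, was higher in RNA in AGO1/2/3 knockout cells (1.29 ± 0.23, edgeR adjusted p = 0.000346). It was lower in AGO2 knockout cells (-0.70 ± 0.23, edgeR adjusted p = 0.0457). The summed level of 10 colorectal epithelial markers was 1820 to 2050 CPM in wild-type, 1370 to 1520 in AGO1 and 1710 to 1910 in AGO2 knockout cells. It was 2250 to 2720 CPM in AGO1/2 and 1730 to 2210 CPM in AGO1/2/3 knockout cells. Of the 8 tested, CDH1 (-3.51), KRT20 (-2.28), EPCAM (-1.74) and CDX2 (-0.585) were lower in AGO1/2/3 knockout cells and KRT8 (0.41) was higher. In this comparison 19.8% of all genes tested were called lower and 20.3% higher. Of the same 8, 3 were lower and none was higher in AGO1 knockout cells, beside 5.5% and 3.17% of all genes. In AGO2 knockout cells 1 was lower and 2 were higher, beside 10.8% and 8.55%. In AGO1/2 knockout cells 2 were lower and 2 higher, beside 8.35% and 8.37%. VIL1 and LGALS4 were at most 0.414 CPM in every sample. The sum of 10 mesenchymal markers was 55.7 to 60.4 CPM in wild-type, 59.2 to 70.6 in the AGO1 and 34.2 to 40.9 in the AGO2 knockout, 84.0 to 88.5 in the double and 226 to 253 in the triple knockout cells. In the last line 5 of these 10 were higher and none lower, beside the same 20.3% and 19.8% of all genes. None of the 10 was at 0 in the samples of that line. Leukocyte markers summed to at most 1.96 CPM, with CD3E at 3 counts or fewer in each sample, and endothelial markers to at most 3.21 CPM. In such bulk samples fewer cells of a type and less RNA per cell cannot be told apart. The part of the mesenchymal and epithelial changes in the results for the Hippo and YAP target genes was not tested.

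In the AGO1/2/3 knockout cells 9 of the 10 genes were higher than in wild-type cells and none was lower. Among all genes tested, 20.3% were called higher and 19.8% lower in this comparison. The 9 were LATS1, LATS2, YAP1, WWTR1, TEAD1, CCN2, AMOTL2, ANKRD1 and AXL, from 1.23-fold for LATS1 to 74.3-fold for ANKRD1. The median log2 fold change of the 10 genes was 1.38, beside -0.01 for all genes tested. In these 9 genes every AGO1/2/3 knockout sample was above every wild-type sample, which held for 26.3% of all genes tested.

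The genes called in AGO1 and AGO2 knockout cells, a part of the 10, went the other way. In AGO1 knockout cells 5 of the 10 genes were lower (LATS1, CCN1, CCN2, AMOTL2 and AXL) and none was higher, beside 5.5% of all genes called lower and 3.17% called higher. In AGO2 knockout cells 3 were lower (CCN1, CCN2 and ANKRD1) and none was higher, beside 10.8% and 8.55% of all genes. In AGO1/2 knockout cells 4 were higher (LATS2, WWTR1, AMOTL2 and AXL) and 1 was lower (CCN1), beside 8.37% and 8.35% of all genes. The medians of the 10 genes were -0.65, -0.17 and 0.41 in the 3 lines, beside -0.01, -0.02 and 0.01 for all genes. Fitted on the 6 samples of the compared lines alone, the calls were 3 of 10 in AGO1 and 3 of 10 in AGO1/2 knockout cells. Without AGO1 knockout replicate 1 the count in AGO1 knockout cells was 2, and it was 3 without AGO1 knockout replicate 2 or wild-type replicate 2. The count in AGO1/2 knockout cells was 3 without AGO1/2 knockout replicate 2 or 3.

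**Figure D1:**
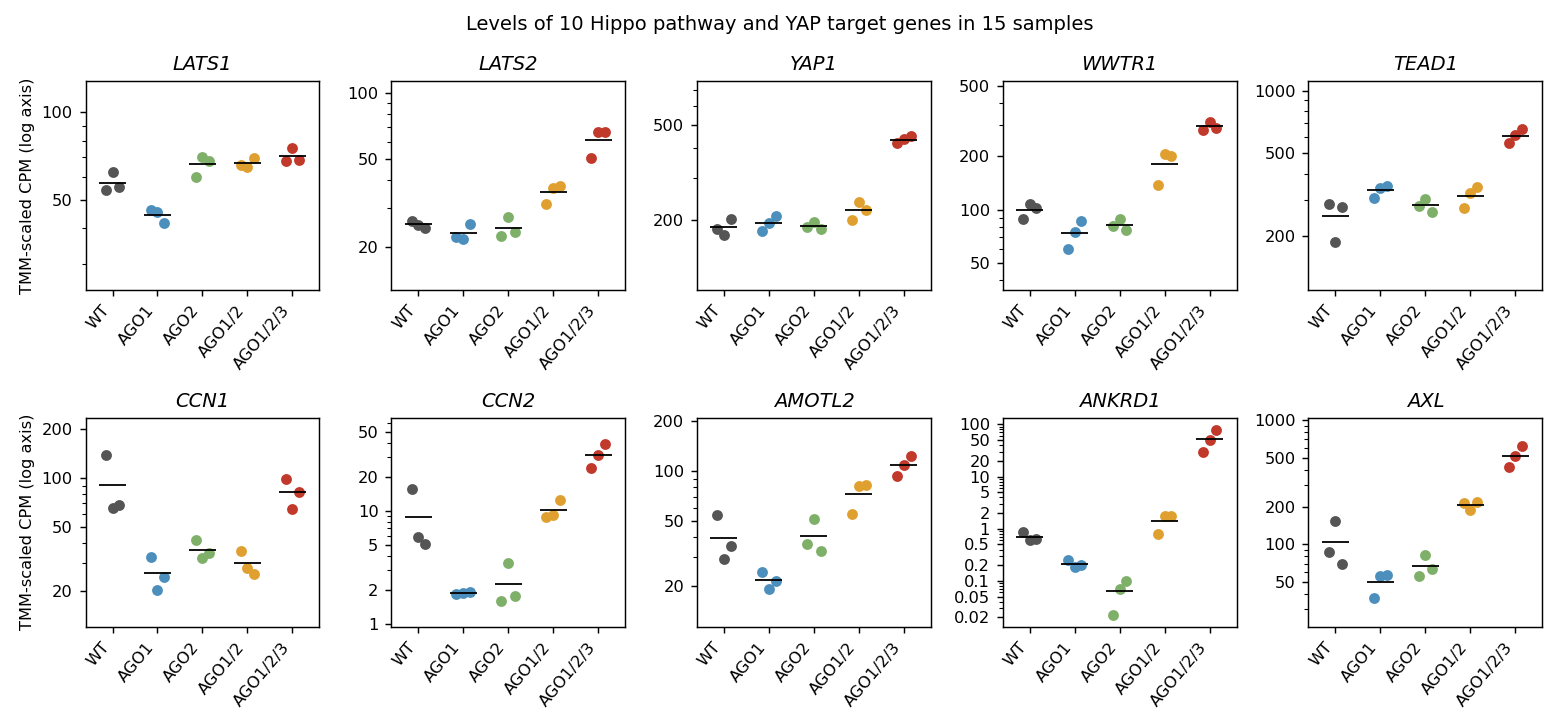
TMM-scaled CPM (log axis, with its own range in each panel) of the 10 genes in the 3 replicates (points) of each of the 5 lines, with the mean as a line. ANKRD1 lies between 0.606 and 0.877 in wild-type cells and between 29.5 and 79.0 in AGO1/2/3 knockout cells, and CCN1 is the gene whose AGO1/2/3 knockout samples overlap the wild-type samples.

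LATS1 encodes one of the paired kinases that inactivate YAP and TAZ (ENSG00000131023, chr6:149658153-149718105 of hg38, minus strand). Its level was 54.2, 62.5 and 55.4 CPM in the 3 wild-type samples and 46.3, 45.6 and 41.6 CPM in AGO1 knockout cells. It was 60.0, 70.4 and 68.2 CPM in AGO2, 65.9, 65.1 and 69.7 CPM in AGO1/2 and 68.3, 75.4 and 68.8 CPM in AGO1/2/3 knockout cells. The AGO1 knockout samples were all under, and the AGO1/2 and AGO1/2/3 knockout samples all over, the wild-type samples, with an overlap of AGO2 knockout and wild-type samples. LATS1 had the narrowest range of the 10 genes, falling in AGO1 knockout cells (-0.37 ± 0.09, edgeR adjusted p = 0.0237) and rising in AGO1/2/3 knockout cells (0.30 ± 0.09, edgeR adjusted p = 0.0164). Its changes in AGO2 (0.21 ± 0.09, edgeR adjusted p = 0.126) and AGO1/2 knockout cells (0.22 ± 0.09, edgeR adjusted p = 0.124) were not called, and both calls of LATS1 depended on single samples. The first was lost without any 1 of the AGO1 knockout replicates or without wild-type replicate 2 (-0.30, edgeR adjusted p = 0.0678). The second was lost without wild-type replicate 1 (0.24) or 3 (0.25), without AGO1/2/3 knockout replicate 2 (0.25) or 3 (0.28), and with libraries scaled by total counts (0.16, edgeR adjusted p = 0.199). The AGO1/2/3, AGO1/2 and AGO2 knockout lines, highest in the order of levels (70.8, 66.9 and 66.2 CPM), did not differ from one another. The AGO2 knockout line, the neighbor of wild-type cells in this order, did not differ from them.

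LATS2, the partner kinase and itself a YAP target, moved more than LATS1 (ENSG00000150457, chr13:20973036-21061586, minus strand). Wild-type samples had 26.3, 25.2 and 24.4 CPM, AGO1 knockout samples 22.3, 21.7 and 25.4 CPM and AGO2 knockout samples 22.5, 27.4 and 23.5 CPM. AGO1/2 knockout samples had 31.4, 37.0 and 37.6 CPM and AGO1/2/3 knockout samples 50.6, 66.0 and 66.3 CPM. The first 3 lines overlapped, while each AGO1/2 knockout sample was above them and each AGO1/2/3 knockout sample higher still. LATS2 was 2.41-fold higher in AGO1/2/3 knockout than wild-type cells (1.27 ± 0.12, edgeR adjusted p = 1.11e-06) and also higher than in AGO1/2 knockout cells (0.79 ± 0.12, edgeR adjusted p = 0.000277). The rise in AGO1/2 knockout cells (0.48 ± 0.12, edgeR adjusted p = 0.0129) was lost without AGO1/2 knockout replicate 2 (0.43, adjusted p = 0.0613) or 3 (0.43, adjusted p = 0.0513). No change was called in AGO1 (-0.13, 95% interval -0.40 to 0.15) or AGO2 knockout cells (-0.05, interval -0.32 to 0.22).

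YAP1, which encodes YAP, rose in the AGO1/2/3 knockout cells (ENSG00000137693, chr11:102110447-102233424, plus strand). It stood at 184, 173 and 202 CPM in wild-type, 180, 195 and 208 CPM in AGO1 and 187, 196 and 183 CPM in AGO2 knockout samples. It stood at 201, 238 and 220 CPM in AGO1/2 and 420, 436 and 451 CPM in AGO1/2/3 knockout samples. All lines but the last overlapped the wild-type samples, and the lowest AGO1/2/3 knockout sample was far above the highest of the other 12. The increase was 2.34-fold over wild-type cells (1.23 ± 0.10, edgeR adjusted p = 1.09e-07) and 1.98-fold over AGO1/2 knockout cells (0.99 ± 0.09, edgeR adjusted p = 3.33e-06). The changes in AGO1 (0.07, interval -0.14 to 0.27), AGO2 (0.02, interval -0.19 to 0.23) and AGO1/2 knockout cells (0.24, interval 0.03 to 0.45) were not called. The AGO1/2, AGO1, AGO2 and wild-type lines, in this order of levels (220, 194, 189 and 186 CPM), did not differ as neighbors.

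WWTR1, which encodes TAZ, was already raised in the double knockout (ENSG00000018408, chr3:149517235-149736714, minus strand). Its level was 88.6, 108 and 102 CPM in wild-type, 59.6, 74.4 and 85.9 CPM in AGO1 and 81.2, 88.5 and 76.2 CPM in AGO2 knockout samples. It was 138, 207 and 200 CPM in AGO1/2 and 283, 313 and 288 CPM in AGO1/2/3 knockout samples. AGO1/2 knockout replicate 1 was the lowest of its line and still above the wild-type samples. WWTR1 rose 1.82-fold in AGO1/2 knockout cells (0.87 ± 0.15, edgeR adjusted p = 0.00121) and 2.95-fold in AGO1/2/3 knockout cells (1.56 ± 0.16, edgeR adjusted p = 1.53e-06), with a difference between both lines (0.70 ± 0.15, edgeR adjusted p = 0.00406). In AGO1 knockout cells all samples were under the wild-type samples without a call (-0.45 ± 0.15, edgeR adjusted p = 0.0901), and the call was made with total counts (-0.54, adjusted p = 0.0277) and without AGO1 knockout replicate 3 (-0.55, adjusted p = 0.0466). The change in AGO2 knockout cells was -0.28 ± 0.15 (edgeR adjusted p = 0.198).

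TEAD1, the DNA-binding partner of YAP and TAZ, followed YAP1 in the comparison with wild-type cells (ENSG00000187079, chr11:12674421-12944737, plus strand). Wild-type samples had 286, 188 and 276 CPM, AGO1 knockout samples 307, 342 and 348 CPM and AGO2 knockout samples 281, 304 and 262 CPM. AGO1/2 knockout samples had 273, 323 and 345 CPM and AGO1/2/3 knockout samples 560, 614 and 654 CPM. Wild-type replicate 2 was the lowest of all 15 samples, and the AGO1/2/3 knockout samples were the 3 highest. TEAD1 was 2.44-fold higher in AGO1/2/3 knockout than wild-type cells (1.28 ± 0.14, edgeR adjusted p = 4.7e-06) and 1.94-fold higher than in AGO1/2 knockout cells (0.96 ± 0.14, edgeR adjusted p = 0.000201). No call was made in AGO1 knockout cells (0.41 ± 0.14, edgeR adjusted p = 0.0917), where every sample was above the wild-type samples. Nor was one made in AGO2 (0.17 ± 0.14) or AGO1/2 knockout cells (0.33 ± 0.14, edgeR adjusted p = 0.138).

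Set per kilobase of exon, YAP1 was above WWTR1 in every line, at 29.5 ± 2.32 against 11.9 ± 1.22 CPM per kb in wild-type cells and 69.1 ± 2.46 against 35.3 ± 1.93 CPM per kb in AGO1/2/3 knockout cells (SD, n = 3). LATS1 had a mean of 6.76 ± 0.53 CPM per kb in wild-type cells, above 4.51 ± 0.17 for LATS2. In AGO1/2/3 knockout cells this order was turned, with 8.34 ± 0.47 for LATS1 and 10.9 ± 1.60 CPM per kb for LATS2. TEAD1 was the most abundant TEAD factor per kilobase in each line, at 23.4 ± 5.06 CPM per kb in wild-type cells beside 9.73 ± 1.19 for TEAD2, 6.31 ± 0.14 for TEAD3 and 6.25 ± 0.98 for TEAD4. Exons shared with opposite-strand genes made up 10.1% of YAP1, 9.1% of WWTR1 (WWTR1-AS1), 11.9% of CCN2 (LINC01013), 3.0% of LATS1 and 1.3% of AXL exon bases, and 2.9% of AMOTL2 exon bases were shared with the same-strand RPL39P5. The library kit kept strand, and the strand setting of the counting is not given in the sources used here, so a small part of these counts could belong to the neighbors.

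**Figure D2:**
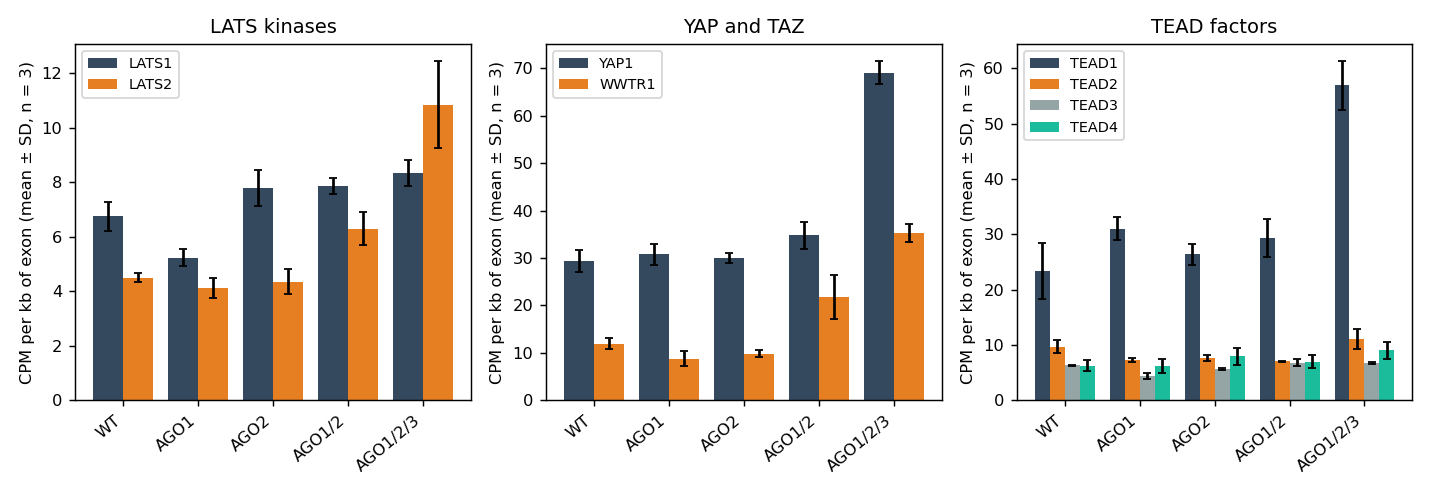
CPM per kilobase of exon (linear axis, mean ± SD of 3 replicates) of the LATS kinases, YAP and TAZ, and the TEAD factors in the 5 lines. YAP1 and TEAD1 stand out in the AGO1/2/3 knockout cells at 69.1 and 56.9 CPM per kb, while TEAD2, TEAD3 and TEAD4 stay at or under 11.2.

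The 3′-UTRs of these mRNAs were searched for seed matches of 6 miRNAs assayed by the study, since the AGO proteins lost here carry miRNAs. The mature sequences, from RefSeq (GRCh38.p14), are shown with the seed (bases 2 to 8) in capitals.

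let-7a-5p: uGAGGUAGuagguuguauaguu
let-7f-5p: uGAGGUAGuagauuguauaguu
miR-21-5p: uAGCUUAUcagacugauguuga
miR-27a-3p: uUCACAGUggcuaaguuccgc
miR-29a-3p: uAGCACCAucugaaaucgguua
miR-125b-5p: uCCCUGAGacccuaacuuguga

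The 6 miRNAs have 5 different seeds, let-7a-5p and let-7f-5p sharing one. All 6 were found in the RefSeq table. The canonical GENCODE v44 transcripts of the 10 genes held 13 seed matches in 5 genes. LATS1 had 3 matches to miR-21-5p (ATAAGCT), 1 to miR-27a-3p (ACTGTGA) and 1 to miR-29a-3p (TGGTGCT). YAP1 had 2 matches to miR-21-5p and 1 to miR-27a-3p, WWTR1 had 1 to miR-21-5p, TEAD1 had 2 to miR-27a-3p and 1 to miR-29a-3p, and AMOTL2 had 1 to miR-29a-3p. These letters were absent from the 3′-UTRs of LATS2, CCN1, CCN2, ANKRD1 and AXL, and no match to let-7 (CTACCTC) or miR-125b-5p (CTCAGGG) was present in the 10. The miR-21-5p matches are shown because they fall in LATS1, YAP1 and WWTR1, the kinase and both of its substrates, with the match in capitals and hg38 positions.

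LATS1 miR-21-5p site at chr6:149661259-149661280, minus strand: gtttttggtagaaaATAAGCTa
LATS1 miR-21-5p site at chr6:149659992-149660013, minus strand: tcagcacatcttatATAAGCTg
LATS1 miR-21-5p site at chr6:149659143-149659164, minus strand: tttcctctgatactATAAGCTt
YAP1 miR-21-5p site at chr11:102231235-102231256, plus strand: tgtgcatgacagaaATAAGCTt
YAP1 miR-21-5p site at chr11:102231640-102231661, plus strand: attaactcttcaatATAAGCTa
WWTR1 miR-21-5p site at chr3:149517507-149517528, minus strand: cttttatgaaaaaaATAAGCTg

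Of the 14693 3′-UTRs of tested genes, 9.69% held the miR-21-5p match, 17.6% the miR-27a-3p match, 16% the miR-29a-3p match, 11.3% the let-7 match and 16.6% the miR-125b-5p match. Long 3′-UTRs hold more matches by length alone. Among 1780 3′-UTRs within 20% of the 3576 bases of LATS1, 18.3% held the miR-21-5p match, and among 534 near the 7515 bases of TEAD1, 49.6% held the miR-27a-3p match. In the triple knockout the genes with matches changed by 0.30 (LATS1), 1.23 (YAP1), 1.28 (TEAD1), 1.47 (AMOTL2) and 1.56 (WWTR1). Those without a match changed by -0.16 (CCN1), 1.27 (LATS2), 1.83 (CCN2), 2.31 (AXL) and 6.22 (ANKRD1). A relation of matches to changes was not tested. A match is a run of letters and was not tested as a binding site.

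CCN1, a secreted matricellular protein and an immediate YAP target (ENSG00000142871, chr1:85580761-85584589, plus strand), was the gene of the 10 that did not rise in the triple knockout. Wild-type samples had 139, 65.1 and 68.6 CPM, AGO1 knockout samples 32.4, 20.5 and 24.5 CPM and AGO2 knockout samples 41.7, 32.1 and 34.4 CPM. AGO1/2 knockout samples had 35.7, 27.8 and 25.7 CPM and AGO1/2/3 knockout samples 98.2, 64.4 and 82.2 CPM. All samples of the AGO1, AGO2 and AGO1/2 knockout lines were under all wild-type samples, and the AGO1/2/3 knockout samples overlapped the wild-type samples. CCN1 fell to 0.284 of the wild-type level in AGO1 knockout cells (-1.82 ± 0.27, edgeR adjusted p = 0.000703), to 0.397 in AGO2 knockout cells (-1.33 ± 0.26, edgeR adjusted p = 0.00483) and to 0.327 in AGO1/2 knockout cells (-1.61 ± 0.27, edgeR adjusted p = 0.00067). In AGO1/2/3 knockout cells the difference from wild-type cells was -0.16 ± 0.26 (interval -0.73 to 0.42, edgeR adjusted p = 0.67), while CCN1 was 2.74-fold higher than in AGO1/2 knockout cells (1.46 ± 0.27, edgeR adjusted p = 0.00103). Wild-type replicate 1 was the highest of all samples for CCN1, 2.14 times the lowest wild-type sample. Without it the log2 fold changes were -1.36 in AGO1 and -0.91 in AGO2 knockout cells, both still called (edgeR adjusted p = 0.00184 and 0.0144), and 0.27 in AGO1/2/3 knockout cells (adjusted p = 0.362).

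CCN2, a related matricellular protein, fell in both single knockouts and rose in the triple knockout (ENSG00000118523, chr6:131948176-131951372, minus strand). Its level was 15.5, 5.8 and 5.07 CPM in wild-type, 1.81, 1.86 and 1.9 CPM in AGO1 and 1.59, 3.43 and 1.75 CPM in AGO2 knockout samples. It was 8.71, 9.1 and 12.4 CPM in AGO1/2 and 23.9, 30.9 and 39.2 CPM in AGO1/2/3 knockout samples. The single knockout samples were all under, and the AGO1/2/3 knockout samples all over, the wild-type samples, and the AGO1/2 knockout samples lay within the wild-type range. CCN2 fell to 0.211 of the wild-type level in AGO1 (-2.24 ± 0.41, edgeR adjusted p = 0.00299) and 0.257 in AGO2 knockout cells (-1.96 ± 0.38, edgeR adjusted p = 0.00465), showed no called change in AGO1/2 knockout cells (0.19 ± 0.36, interval -0.60 to 0.99) and rose 3.56-fold in AGO1/2/3 knockout cells (1.83 ± 0.36, edgeR adjusted p = 0.000738). Here too wild-type replicate 1 was the highest wild-type sample, 3.07 times the lowest. Without it the log2 fold changes were -1.54, -1.29 and 2.51 in AGO1, AGO2 and AGO1/2/3 knockout cells, all still called.

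AMOTL2, an angiomotin family scaffold that binds YAP and promotes LATS activity, changed in both directions (ENSG00000114019, chr3:134355347-134375479, minus strand). Wild-type samples had 53.9, 29.3 and 35.1 CPM, AGO1 knockout samples 24.5, 19.3 and 21.5 CPM and AGO2 knockout samples 36.3, 51.5 and 32.7 CPM. AGO1/2 knockout samples had 54.9, 81.0 and 82.4 CPM and AGO1/2/3 knockout samples 93.3, 109 and 124 CPM. AGO1 knockout samples were under, and AGO1/2 and AGO1/2/3 knockout samples over, every wild-type sample, the AGO1/2 line by a narrow margin. AMOTL2 was lower in AGO1 knockout cells (-0.86 ± 0.23, edgeR adjusted p = 0.0289), 1.84-fold higher in AGO1/2 knockout cells (0.88 ± 0.23, edgeR adjusted p = 0.0132) and 2.76-fold higher in AGO1/2/3 knockout cells (1.47 ± 0.23, edgeR adjusted p = 0.000101). No change was called in AGO2 knockout cells (0.03, interval -0.47 to 0.52), and the difference between the triple and double knockout was not called (0.58 ± 0.22, edgeR adjusted p = 0.0754). The AGO1 call was lost without wild-type replicate 1 (-0.56, adjusted p = 0.143) or any 1 AGO1 knockout replicate, and the AGO1/2 call without wild-type replicate 2 (0.69) or 3 (0.79) or AGO1/2 knockout replicate 2 (0.78) or 3 (0.78).

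ANKRD1, a nuclear ankyrin repeat protein and a YAP target, had the largest change of the 10 genes (ENSG00000148677, chr10:90912096-90921087, minus strand). It was low in 4 of the 5 lines, at 0.877, 0.606 and 0.633 CPM in wild-type, 0.249, 0.183 and 0.2 CPM in AGO1 and 0.0224, 0.0694 and 0.101 CPM in AGO2 knockout samples. It was at 0.801, 1.72 and 1.73 CPM in AGO1/2 and 29.5, 49.7 and 79.0 CPM in AGO1/2/3 knockout samples. The lines followed one another without overlap from AGO2 to AGO1 to wild-type cells, AGO1/2 knockout samples overlapped wild-type samples, and AGO1/2/3 knockout samples stood far above all others. Summed over 3 samples, 68 counts in wild-type cells stood beside 19 in the AGO1, 8 in the AGO2, 122 in the double and 4907 in the triple knockout. The depth-scaled ratio to wild-type cells was 71.6 in AGO1/2/3 knockout cells (exact 95% interval from counting error alone, 56.4 to 92.3) and 0.0891 in AGO2 knockout cells (0.037 to 0.186). In the model the change was 6.22 ± 0.38 in AGO1/2/3 (edgeR adjusted p = 9.74e-09) and -3.41 ± 0.68 in AGO2 knockout cells (edgeR adjusted p = 0.00518). The changes in AGO1 (-1.72 ± 0.58, edgeR adjusted p = 0.0857) and AGO1/2 knockout cells (0.99 ± 0.42, edgeR adjusted p = 0.126) were not called by edgeR, while DESeq2 called the former (-1.73, adjusted p = 0.00916).

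AXL, a receptor tyrosine kinase on the cell surface, fell in the AGO1 knockout and rose in the double and triple knockouts (ENSG00000167601, chr19:41219223-41261766, plus strand). Wild-type samples had 86.9, 155 and 69.5 CPM, AGO1 knockout samples 36.8, 55.1 and 56.1 CPM and AGO2 knockout samples 55.2, 82.1 and 63.2 CPM. AGO1/2 knockout samples had 217, 188 and 221 CPM and AGO1/2/3 knockout samples 423, 512 and 615 CPM. Wild-type replicate 2 was the highest of its line, 2.24 times the lowest, and still under all AGO1/2 knockout samples. AXL was lower in AGO1 knockout cells (-1.08 ± 0.26, edgeR adjusted p = 0.0164), 2.01-fold higher in AGO1/2 (1.01 ± 0.25, edgeR adjusted p = 0.0125) and 4.97-fold higher in AGO1/2/3 knockout cells (2.31 ± 0.26, edgeR adjusted p = 5.35e-06). It differed between the triple and double knockout (1.31 ± 0.26, edgeR adjusted p = 0.00171). The AGO1 call was lost without wild-type replicate 2 (-0.66, adjusted p = 0.06) or AGO1 knockout replicate 1 (-0.90, adjusted p = 0.0776), and the AGO1/2 call without wild-type replicate 1 (0.88, adjusted p = 0.0607). The change in AGO2 knockout cells was not called (-0.64 ± 0.25, edgeR adjusted p = 0.087) and was called with total counts (-0.77) and without wild-type replicate 3 (-0.89).

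**Figure D3:**
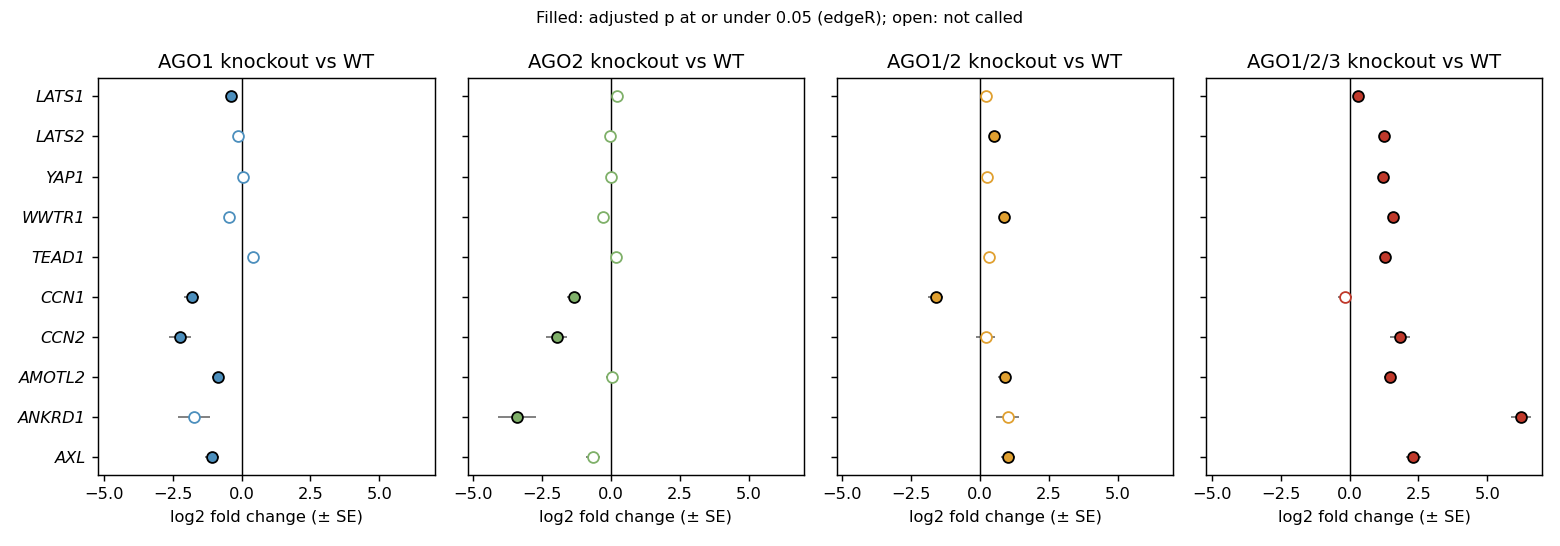
Log2 fold change against wild-type cells (± SE) of the 10 genes in the 4 knockout lines, filled where the edgeR adjusted p was at or under 0.05. Called points lie on the left in AGO1 (5 genes) and AGO2 knockout cells (3 genes), and on the right in AGO1/2/3 knockout cells (9 genes), with ANKRD1 at 6.22.

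TEAD factors recognize the core GGAATG, read as CATTCC on the other strand. RefSeq promoter windows of GRCh38.p14, from 250 bases before to 50 after the start of transcription, were found for 8 of the 10 genes, all but TEAD1 and CCN1, with more than 1 start and window for LATS1, WWTR1, AMOTL2 and AXL. Of these 12 windows 6 held the core on either strand, beside 14% of the 35116 windows of the table. The core occurred 3 times in CCN2, 2 times in ANKRD1 and once each in LATS2, YAP1, AMOTL2 and AXL, and was absent from the windows of LATS1 and WWTR1. In AMOTL2 and AXL it lay in 1 of the 2 windows, at a start inside the gene as annotated, and the other window held none. The windows around the cores of the 4 targets are shown because these genes had the largest changes after AGO1/2/3 loss or, for AMOTL2, changed in both directions. Each is written on the strand of its gene with the core in capitals.

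CCN2 at chr6:131951524-131951553, minus strand: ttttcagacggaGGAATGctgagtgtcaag
CCN2 at chr6:131951459-131951488, minus strand: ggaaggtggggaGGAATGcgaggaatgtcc
CCN2 at chr6:131951450-131951479, minus strand: ggaggaatgcgaGGAATGtccctgtttgtg
ANKRD1 at chr10:90921290-90921319, minus strand: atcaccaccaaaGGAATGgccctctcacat
ANKRD1 at chr10:90921198-90921227, minus strand: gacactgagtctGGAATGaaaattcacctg
AMOTL2 at chr3:134374499-134374528, minus strand: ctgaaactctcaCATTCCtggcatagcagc
AXL at chr19:41226531-41226560, plus strand: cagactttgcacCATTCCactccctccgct

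The CCN2 cores begin 169, 104 and 95 bases before the start of transcription, and the ANKRD1 cores 220 and 128 bases before it. A core is a short run of letters, and its use in these cells was not measured.

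The double knockout differed from the sum of the single knockouts. On the log2 scale, the change in AGO1/2 knockout cells minus both single changes was above 0 and called for 7 of the 10 genes and below 0 and called for none, beside 11.5% of all genes called above 0, with a median of 1.57 beside 0.05 for all genes. For CCN2 the single changes summed to -4.20, the double knockout changed by 0.19, and the difference was 4.40 ± 0.56 (edgeR adjusted p = 0.000101). For ANKRD1 the sum was -5.12, the double knockout changed by 0.99, and the difference was 6.12 ± 0.86 (edgeR adjusted p = 0.000245). The ANKRD1 sum rests on 8, 5 and 6 counts in the AGO1 and 1, 3 and 4 counts in the AGO2 knockout samples. A level as low as this sum could hardly be read at such counts, so the size of the ANKRD1 difference is uncertain. The differences were 2.72 ± 0.36 for AXL (edgeR adjusted p = 0.000156), 1.71 ± 0.32 for AMOTL2 (edgeR adjusted p = 0.00192) and 1.59 ± 0.22 for WWTR1 (edgeR adjusted p = 0.000195), whose single knockout changes summed to a value below 0 while the double knockout rose. CCN1 fell in each of the 3 lines, and less in the double knockout (-1.61) than the single changes summed to (-3.15), with a difference of 1.54 ± 0.37 (edgeR adjusted p = 0.00994). For LATS2 the difference was 0.66 ± 0.17 (edgeR adjusted p = 0.0154), lost without AGO1 knockout replicate 2 (0.58, adjusted p = 0.0563). No difference was called for LATS1 (0.38 ± 0.13, edgeR adjusted p = 0.0539), YAP1 (0.15, interval -0.14 to 0.45) or TEAD1 (-0.26, interval -0.70 to 0.19). The wild-type samples enter all 3 changes, and without wild-type replicate 1 the differences were 3.70 for CCN2 and 1.09 for CCN1, both still called. The 3 AGO2 knockout files carry a header naming a quantification mode that the other 12 files do not name. This mode and the AGO2 genotype cannot be told apart in any comparison that includes the AGO2 knockout line.

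**Figure D4:**
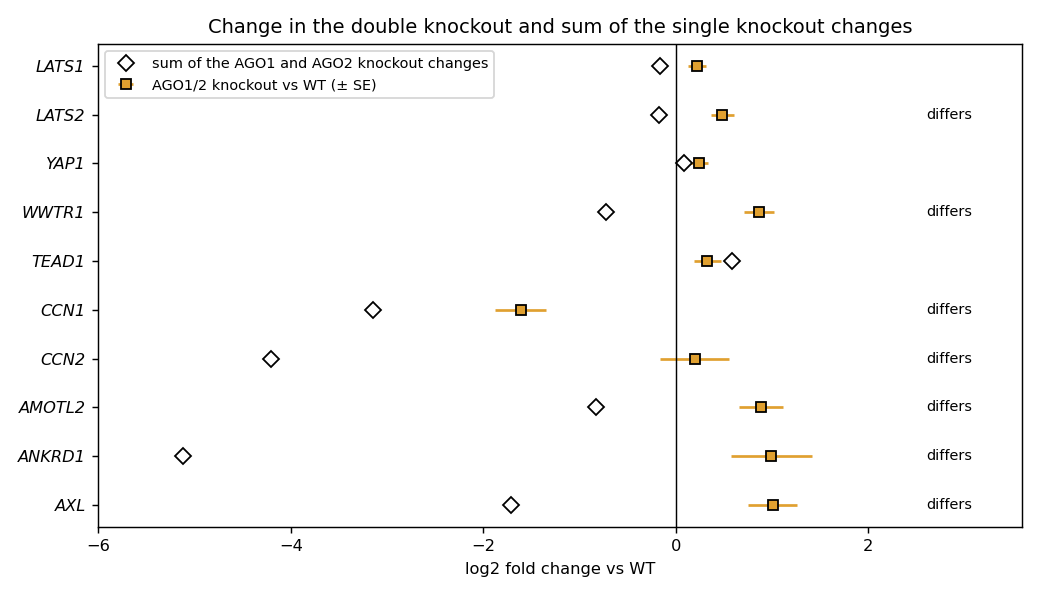
Log2 fold change of the 10 genes in AGO1/2 knockout cells (squares, ± SE) and the sum of the changes in the AGO1 and AGO2 knockout cells (diamonds, without error bars), with the 7 genes whose difference was called by edgeR marked. CCN2, AMOTL2, ANKRD1, AXL, WWTR1 and LATS2 have a sum below 0 and a double knockout value above 0, and CCN1 has both below 0.

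The AGO1/2/3 and AGO1/2 knockout lines differ in AGO3 by label, and between them 8 of the 10 genes were higher in the former, beside 11.9% of all genes. The exceptions were LATS1 (0.08, interval -0.12 to 0.29) and AMOTL2. ANKRD1 rose 37.3-fold between these lines (5.22 ± 0.35, edgeR adjusted p = 1.46e-07) and CCN2 3.11-fold (1.64 ± 0.35, edgeR adjusted p = 0.00363). Over the 6 pairs of knockout lines, 42 of 60 comparisons of the 10 genes were called in either direction, beside 27.4% of all genes and pairs. The AGO1 and AGO2 knockout lines differed from each other in LATS1 (0.57 ± 0.09, edgeR adjusted p = 0.000791) and AMOTL2 (0.88 ± 0.23, edgeR adjusted p = 0.015), both higher in AGO2 knockout cells, and the other 8 genes were not called between them. In the order of levels the AGO1/2/3 knockout cells were first for 9 genes and the AGO1/2 knockout cells second for 8 of these, TEAD1 having AGO1 knockout cells second (332 CPM beside 314 in AGO1/2 knockout cells, not called between them). For CCN1 wild-type cells were first with 91.0 CPM, beside 81.6 in AGO1/2/3 knockout cells, and these 2 did not differ beyond their spread.

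Many other Hippo pathway genes were also higher in the triple knockout. They have unlike roles and are not all upstream of LATS, so their count does not measure LATS activity. Of 23 kinase core and upstream regulator genes, 15 were higher and none was lower in AGO1/2/3 knockout cells, beside 20.3% and 19.8% of all genes, with a median log2 fold change of 0.57 beside -0.01 for all genes. PTPN14, a phosphatase that binds YAP, rose 6.31-fold (2.66 ± 0.10, edgeR adjusted p = 1.93e-10), from 127, 113 and 121 CPM in wild-type to 682, 827 and 769 CPM in AGO1/2/3 knockout samples. FRMD6, a membrane scaffold of the pathway, rose 3.98-fold (1.99 ± 0.11), and NF2, the merlin tumor suppressor that recruits LATS to the membrane, rose 3.82-fold (1.93 ± 0.18, edgeR adjusted p = 7.39e-07). The LATS-activating kinase MAP4K4 (1.21) and the LATS-related kinase STK38 (1.09) rose as well, and so did the LATS cofactors MOB1A (0.62) and MOB1B (0.63). Also called higher were AJUBA (0.82), TAOK1 (0.68), TAOK2 (0.62), STRN (0.61), TAOK3 (0.45) and STRN3 (0.425). Of the MST kinases that activate LATS, STK3 was not called (-0.06 ± 0.09) and STK4 was called (0.25 ± 0.09, edgeR adjusted p = 0.0277), a call lost without any 1 of the 6 samples of both lines. Their scaffold SAV1 was not called (0.17 ± 0.13). AMOTL1 rose (0.57 ± 0.11, edgeR adjusted p = 0.000598) and AMOT was not called (0.04 ± 0.26). In AGO1/2 knockout cells 9 of the 23 were higher and 1, STK3 (-0.56), was lower, beside 8.37% and 8.35% of all genes, with a median of 0.18. In AGO1 knockout cells none was higher and 1 was lower, beside 3.17% and 5.5% of all genes, and in AGO2 knockout cells 4 were higher and 1 was lower, beside 8.55% and 10.8%. The single genes called lower in these lines are no more than the share of all genes gives.

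Of the TEAD factors and cofactors other than TEAD1, 1 of the 5 tested was higher in AGO1/2/3 knockout cells, with a median of 0.18, a share like the 20.3% of all genes called higher. This was TEAD4 (0.54 ± 0.19, edgeR adjusted p = 0.0342), lost without wild-type replicate 2 (0.39) or 3 (0.54) or AGO1/2/3 knockout replicate 2 (0.55) or 3 (0.35). TEAD2 (0.20 ± 0.12), TEAD3 (0.10 ± 0.10) and VGLL4 (0.18 ± 0.15), a TEAD cofactor that competes with YAP, were not called, and VGLL1 was not tested. TEAD2 and TEAD3 were lower in AGO1 knockout cells (-0.43 and -0.53), TEAD2 also in AGO1/2 knockout cells (-0.46), beside 5.5% and 8.35% of all genes called lower in these lines, and none of the 5 was called in AGO2 knockout cells.

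A wider signature of 22 YAP and TAZ targets, 6 of them among the 10 genes, had 14 genes higher and 2 lower of 21 tested in AGO1/2/3 knockout cells. Without those 6, 9 were higher and 2 lower of 15 tested, beside 20.3% and 19.8% of all genes, with a median log2 fold change of 0.74 beside -0.01 for all genes. The count of lower genes is under the share of all genes. TGFB2, a transforming growth factor, rose most of these (4.59 ± 0.28, edgeR adjusted p = 9.51e-09), from 1.1, 1.21 and 0.874 CPM in wild-type to 22.9, 24.6 and 29.0 CPM in AGO1/2/3 knockout samples, with no overlap. CRIM1 (2.27), the ectonucleotidase NT5E (2.09), ASAP1 (1.31), ARHGEF17 (0.94), CCDC80 (0.84), DOCK5 (0.74), the kinase NUAK2 (0.72) and PTPN14 were higher too. IGFBP3, a binding protein of insulin-like growth factors (-1.75 ± 0.49, edgeR adjusted p = 0.0101), and the stress response gene GADD45A (-0.86 ± 0.31, edgeR adjusted p = 0.0373) were lower, with an overlap of wild-type and AGO1/2/3 knockout samples in both. The call of GADD45A was lost without wild-type replicate 2 (-0.45) or AGO1/2/3 knockout replicate 2 (-0.82) or 3 (-0.83), and that of NUAK2 without the same replicates (0.45, 0.65 and 0.62). The same 15 genes had 3 lower and none higher in the AGO1 knockout (5.5% and 3.17% of all genes), 3 lower and 2 higher in the AGO2 knockout (10.8% and 8.55%), and 2 lower and 5 higher in the double knockout (8.35% and 8.37%). Their medians were -0.05, -0.03 and 0.18, and counts this small lie near those shares in several of these cases. Both lists were chosen with results of these samples known and hold genes that share the wild-type samples with the comparisons already given. PTPN14 is in both lists and is counted in each.

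**Figure D5:**
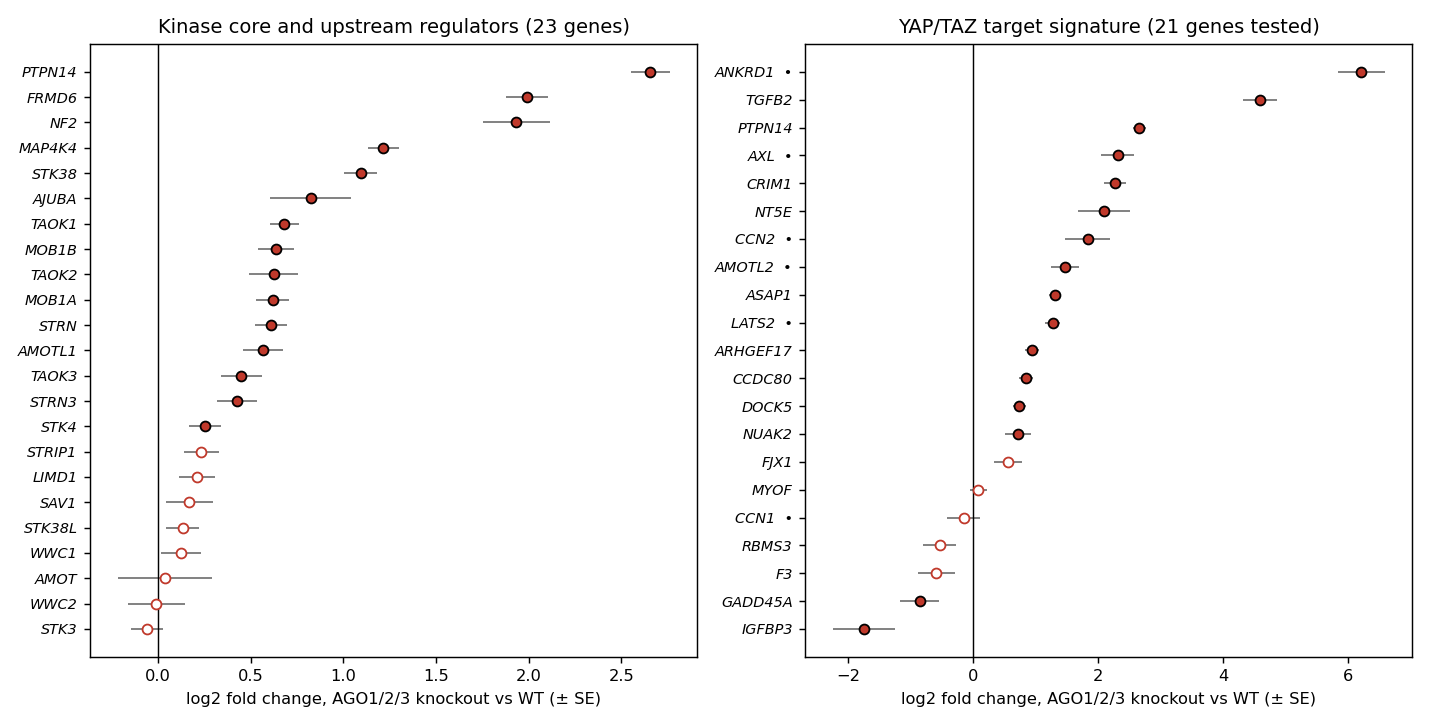
Log2 fold change (± SE) between AGO1/2/3 knockout and wild-type cells of 23 kinase core and upstream regulator genes (left) and 21 YAP and TAZ signature genes (right), filled where called, with a dot behind the names of the genes among the 10. PTPN14 leads the left panel at 2.66 and ANKRD1 the right at 6.22, while IGFBP3 and GADD45A are filled on the lower side.

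The genes whose log2 CPM followed each of the 10 most closely over the 15 samples were named by Pearson's r. This is a description of samples that fall into 5 lines and differ in library depth. For YAP1 they were CAMTA1 (0.99) and SUSD1 (0.986), for WWTR1 ATL3 (0.981) and EGFR (0.98), and for TEAD1 SEMA3C (0.97) and VCL (0.962). For LATS1 they were MAP4K5 (0.963) and ECPAS (0.942), and for LATS2 SAMD4A (0.983) and CEMIP2 (0.982). For CCN2 they were EPHA2 (0.956) and PDGFB (0.953), for AMOTL2 MIR4435-2HG (0.964) and CMTM6 (0.956), for ANKRD1 STIM1 (0.979) and FRMD4A (0.978), and for AXL ECE1 (0.988) and TPM4 (0.986). CCN1 had the weakest partners, STAG3L5P-PVRIG2P-PILRB (0.879) and HDAC7 (0.877). Among the 10 themselves, WWTR1 and AXL (0.964) and WWTR1 and LATS2 (0.955) had the highest r, and LATS1 and CCN1 (0.29), TEAD1 and LATS1 (0.279) and TEAD1 and CCN1 (0.255) the lowest.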

How the data were processed

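RNA from 15 samples of 5 HCT116 lines was analysed, and the 8 eCLIP samples were not analysed here. Per the methods, the authors depleted ribosomal RNA, made stranded libraries, aligned paired reads to hg38 with STAR and quantified them with Salmon (2.5.3a and 0.11.0 in the submitters' processing notes). The deposited values are estimated counts (expected counts) per gene, 1 file per sample, without depth normalization. No 2 of the 15 samples, of 105 pairs, held identical values. Counts were rounded, filtered with filterByExpr (minimum count 10, 0.326 CPM) and scaled by TMM, and 22842 genes were fitted in 1 model of the 15 samples without covariates by edgeR 4.0.16 (biological coefficient of variation 0.152) in R 4.3.3, with limma 3.58.1. Intervals of log2 fold changes are at 95%, from the SE and the t distribution with 10 residual degrees of freedom, and count intervals and the floor of 3 counts cover counting error only. p-values measure the spread between the biological replicates of 1 line each. The alternatives were DESeq2 1.42.0, its size factors, total counts, other filters, fewer samples and a block on the replicate number. The code was tested on simulated data.

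The 10 genes are named in each comparison, and from the lists the genes called in the AGO1/2/3 comparison and the members' partners. Genes alike were the 2 tested genes of at least 1 CPM with the highest Pearson r of log2 CPM (prior count 2). The members and lists were chosen with earlier results of these data known. Seed matches were searched in canonical GENCODE v44 transcripts, and RefSeq sequences are of GRCh38.p14.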

Additional observations from a re-analysis of the deposited data

Results flagged for a closer look

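For 7 of the 10 genes the change in AGO1/2 knockout cells differed from the sum of the AGO1 and AGO2 knockout changes, as measured in 1 edited line per genotype. This was tested as an interaction in edgeR's quasi-likelihood model, with p-values adjusted over all genes by the Benjamini-Hochberg method. The difference on the log2 scale was 0.659 for LATS2 (adjusted p = 0.0154), 1.595 for WWTR1 (adjusted p = 0.000195), 1.537 for CCN1 (adjusted p = 0.00994), 4.398 for CCN2 (adjusted p = 0.000101), 1.713 for AMOTL2 (adjusted p = 0.00192), 6.119 for ANKRD1 (adjusted p = 0.000245) and 2.72 for AXL (adjusted p = 0.000156). Wild-type replicate 1 was the highest wild-type sample for LATS2, CCN1, CCN2, AMOTL2 and ANKRD1, and all 7 calls but that of LATS2 held without each of the 12 samples in turn. The size of the ANKRD1 difference is uncertain, with 8, 5 and 6 counts in the AGO1 and 1, 3 and 4 in the AGO2 knockout samples. The part of the quantification mode of the AGO2 knockout files in these 7 differences cannot be told apart from the genotype.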

How the results depend on the processing

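Of the results for single genes under other settings, 1206 kept their direction and side of the threshold, 59 lost and 16 gained a call, and 16, none of them called, changed sign. Fitted on the 6 compared samples alone, members called fell to 3 in AGO1 and 3 in AGO1/2 knockout cells, and all genes called to 658, 1868 and 2116 in the AGO1, AGO2 and double knockout, beside 1982, 4408 and 3820. Fewer samples give fewer residual degrees of freedom. Leaving out 1 sample, members called ranged from 2 to 5 in the AGO1, 3 to 4 in the AGO2, 3 to 5 in the double and 8 to 9 in the triple knockout, 6 to 8 for the non-additive effect and 41 to 42 between knockout lines. All genes called ranged from 964 to 1984, 1529 to 5022, 2570 to 3850, 7688 to 8868 and, for the non-additive effect, 3121 to 5530 (main 9166 and 4505 for the last 2). Under scaling by total counts the all-gene median stood at -0.15 for the triple and -0.14 for the AGO2 knockout, beside -0.01 and -0.02 with TMM. It turned YAP1 in AGO1 (-0.025) and AGO2 (-0.097) and AMOTL2 in AGO2 knockout cells (-0.099). A minimum of 10 counts in every sample, at which ANKRD1 dropped out, turned YAP1 (-0.017) and AMOTL2 (-0.014) in AGO2 knockout cells. Leaving out 1 sample gave ranges over 0 for YAP1 (-0.054 to 0.056), TEAD1 (-0.02 to 0.264) and AMOTL2 (-0.209 to 0.299) in AGO2, CCN2 in AGO1/2 (-0.106 to 0.88) and CCN1 in AGO1/2/3 knockout cells (-0.377 to 0.268). The cause of these was not tested.

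Replicates share only a number between lines, and same-numbered samples correlated over 0.1 in 8 of 30 pairs. Other pairs correlated below 0, down to -0.394 for replicate 1 of the AGO2 and AGO1/2 knockout lines. With the replicate number as a block, members called were 6 in AGO1 knockout cells (AMOTL2 lost at an adjusted p of 0.0518, WWTR1 and ANKRD1 gained), 3, 5 and 9 in the other lines and 43 between knockout lines, and 1781, 3798, 3599 and 8945 of all genes.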

Other observations

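SRF and its MRTF cofactors drive cytoskeletal genes, some of which YAP and TAZ also regulate. Of 12 such targets, 5 were higher and none was lower in AGO1/2/3 knockout cells by edgeR's quasi-likelihood test, beside 20.3% and 19.8% of all genes, with a median log2 fold change of 0.61. The 5 were the actin crosslinker FLNA (1.17 ± 0.10), the calponin CNN2 (1.16 ± 0.15), VCL, which encodes vinculin (1.16 ± 0.14), the myosin light chain MYL9 (1.03 ± 0.14) and the tropomyosin TPM1 (0.76 ± 0.11). SRF itself was not called in that line (-0.21 ± 0.11) and was lower in AGO1 (-0.45) and AGO1/2 knockout cells (-0.59). In AGO2 knockout cells 3 of the 12 were lower, TAGLN (-1.48), FHL2 (-0.96) and ACTA2 (-0.73), and none was higher, beside 10.8% and 8.55% of all genes.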
